A study of Homo sapiens with 6 samples.

Results

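The p53 target genes examined here are 31 genes that the tumour suppressor p53 is known to switch on, listed by name among the 26334 genes of the deposited count table. The list uses no measured value as a criterion, but it was drawn up with earlier results of these data known. RNA was sequenced from MCF10DCIS.com cells, a human breast cancer line that grows as basal-like ductal carcinoma in situ. In 3 libraries (shLuc) the cells carried pRSI-U6-shLuc-UbiC-TagRFP-2A-Puro, a lentiviral hairpin against luciferase, and in 3 libraries (shWDR5) they carried pRSI-U6-shWDR5-UbiC-TagRFP-2A-Puro. All cells were selected with puromycin at 3 µg/ml and grown in DMEM/F12 with horse serum, L-glutamine, antibiotics, HEPES and calcium chloride, so vector backbone and selection were shared by both groups. The shWDR5 cells received a pool of hairpins, so they are a mixed infected population and not a clone. The time between infection and lysis is not given in the sources used here.

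WDR5 is a core subunit of the complexes that methylate histone H3 at active promoters. p53 is a DNA-binding factor that is kept scarce by MDM2 in resting cells and is stabilised when DNA, ribosome assembly or nutrient supply is disturbed. It then activates genes that stop the cell cycle, repair DNA, adjust metabolism or promote death, together with genes such as MDM2 that limit p53 itself. MCF10DCIS.com descends from MCF10A, a mammary epithelial line. Many p53 targets also answer to other factors, among them p63 in basal epithelium (PERP) and ATF4 under stress (SESN2, GDF15).

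The DNA element that p53 reads is a pair of decamers, each with a C and a G around its centre. The promoter windows of the members were searched for it, and the stretches are shown so that these letters can be set beside each gene's values. Windows ran from 250 bases before to 50 bases after each RefSeq transcription start (GRCh38.p14). A match was a 20-base stretch with both decamers adjacent, all 4 core C and G bases present and at most 3 mismatches to the p53 consensus, which reads the same on both strands. Of the 31 members 26 had a window (FBXO22, GADD45A, RRM2B, TP53INP1 and PHLDA3 had none in the table), and 6 held a match. Counted by window, 7 of the members' 37 windows held a match, against 1.12% of all 35116 windows of that length. Counted by gene, 1.37% of the 27305 genes with a window held one. Windows of a gene can overlap, and the 7 windows held 6 distinct stretches. The members were listed as known p53 targets and the mismatch limit was set after the windows were seen. These shares are therefore a description and not a test. The 6 stretches are shown 5′ to 3′ on the gene's strand, with the matching 20 bases in capitals and the flanking bases in lower case.
MDM2: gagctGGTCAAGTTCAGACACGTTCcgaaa
DDB2: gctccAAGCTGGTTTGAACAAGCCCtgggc
AEN: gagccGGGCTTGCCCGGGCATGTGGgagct
SESN1: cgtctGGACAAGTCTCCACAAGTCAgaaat
FDXR: ggcccGGGCAGGAGCGGGCTTGCCCtgcgg
GDF15: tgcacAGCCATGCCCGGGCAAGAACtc

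The DDB2 stretch (chr11:47214964-47214993, plus strand) had 1 mismatch and lay across the start. The MDM2 stretch (chr12:68808918-68808947, plus strand) had 2 mismatches and lay before an internal start of the gene. The AEN stretch (chr15:88621301-88621330, plus strand) had 2 mismatches. SESN1 (chr6:109009013-109009042, minus strand) and FDXR (chr17:74872991-74873020, minus strand) had 3 mismatches each, in stretches just before a start. The GDF15 stretch (chr19:18386181-18386207, plus strand) also had 3 mismatches and lay just after the start. A match describes letters in a window and is not evidence of binding. Elements outside these windows, and elements whose decamers are set apart by other bases, were not searched.

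Libraries held 38218108 to 57640167 counts assigned to genes, and levels are given as counts-per-million values (CPM) after TMM scaling of library size. WDR5 stood at 52.6, 48.5 and 51.4 CPM in the 3 shLuc libraries and at 23.4, 24.4 and 20.8 CPM in the 3 shWDR5 libraries. The groups did not overlap, and WDR5 RNA fell by 1.15 ± 0.07 on the log2 scale (SE, adjusted p = 1.86e-07, edgeR quasi-likelihood test). The summed level of 10 epithelial markers was 13130 to 14760 CPM in shLuc and 18910 to 21450 CPM in shWDR5. Within that list KRT5, KRT14, KRT17, TP63, LAMB3 and ITGB4 rose, CDH1 and EPCAM fell, and KRT8 and KRT18 did not pass the test. The fibroblast marker LUM and the T cell marker CD3E had no count in any library, and COL1A2, COL3A1, DCN and PTPRC were at or below 0.151 CPM in each. The summed fibroblast markers ran from 21.6 to 23.7 CPM in shLuc and 14.9 to 17.8 CPM in shWDR5. The leukocyte sums were 11.97 to 14.5 and 11.2 to 13.2 CPM, and the endothelial sums 7.81 to 8.45 and 5.31 to 6.02 CPM. COL1A1, CD14 and PECAM1 fell within these lists, and their part in the results was not tested. In bulk RNA, fewer cells of a kind and less RNA per cell cannot be told apart. The labels number the replicates but do not say whether they were separate cultures. The p-values therefore set the group difference against the spread between libraries of a group, which may not include the spread between cultures.

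Silencing of WDR5 was accompanied by a higher level of most p53 target genes. Of the 31 members, which all passed the filter on low counts, 23 were called higher in shWDR5, 3 were called lower and 5 did not pass the test at an adjusted p of 0.05. Calls in either direction took in 26 members, or 83.9%, against a background of 56.5% of the 16117 genes tested. By direction, 26.6% of all genes tested were called higher and 29.9% lower, against 74.2% and 9.68% of the members. The median log2 fold change of the members was 0.41, and that of all genes tested was -0.01. CPM values of the groups did not overlap for 27 members, or 87.1%, against 62.3% of all genes tested. With the added demand of a log2 change of at least 0.6, a criterion the study set for its xenograft cells, 12 members were higher, or 38.7% of the list, against 10.9% of all genes tested. That demand left 1 member lower, CCNG1, against 12.0% of all genes tested. The members were sequenced deeply, and the lowest count of any member in any library was 422 reads, for ANKRA2.

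**Figure D1:**
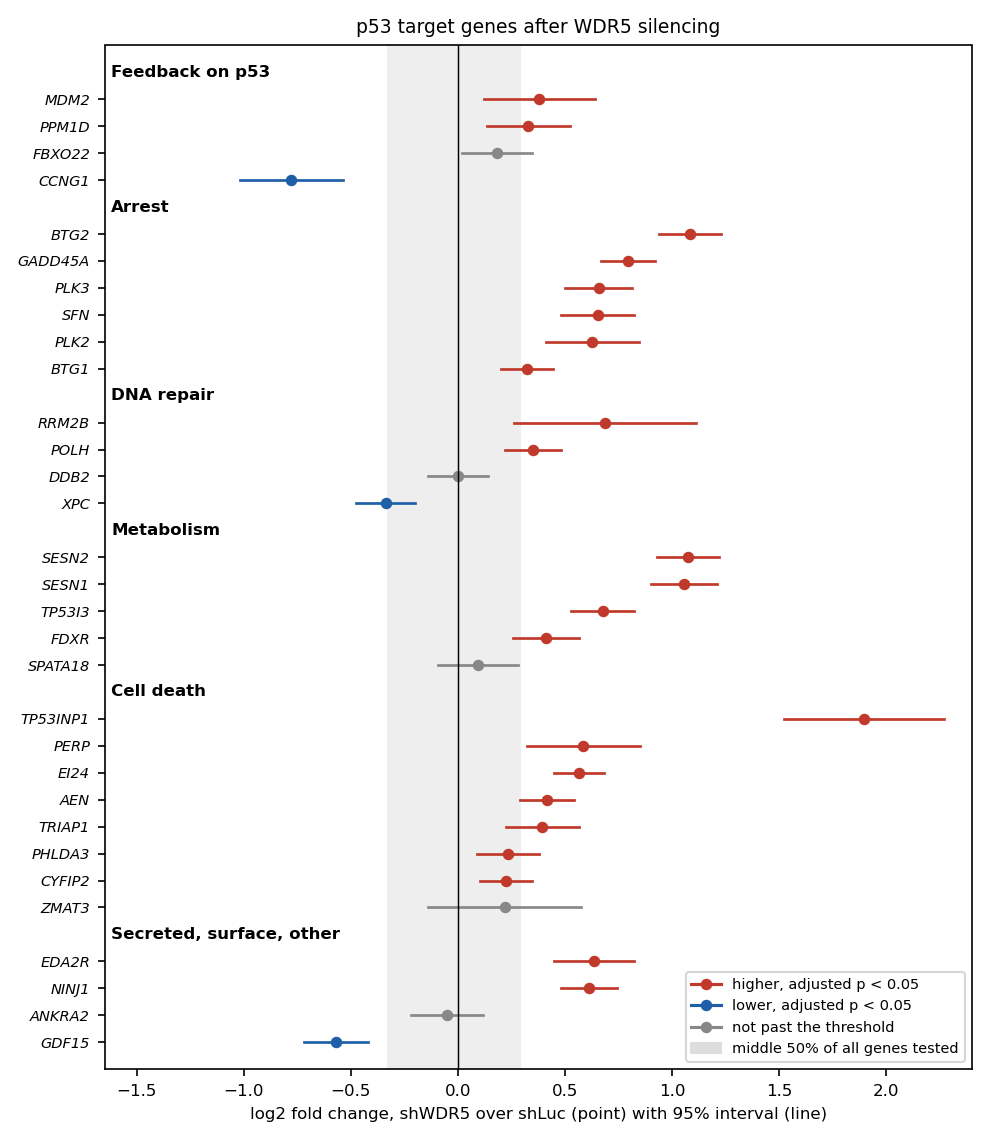
Log2 fold change (shWDR5 over shLuc, horizontal axis) of each of the 31 p53 target genes (vertical axis) by function, with its 95% interval from the edgeR fit of 3 against 3 libraries. Red marks the 23 genes called higher, blue the 3 called lower (CCNG1, GDF15, XPC) and grey the 5 that did not pass, and the shaded band holds the middle 50% of all genes tested, from -0.33 to 0.29.

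Genes that halt proliferation rose together. All 6 arrest members were called higher in shWDR5, against 26.6% of all genes tested. Their median log2 fold change was 0.65, with a range from 0.32 to 1.08. BTG2, an antiproliferative factor that speeds the removal of mRNA poly(A) tails, was at 46.8, 44.1 and 49.99 CPM in shLuc and at 104.9, 95.2 and 98.7 CPM in shWDR5. Each silenced library lay far above each control, a 2.12-fold rise (log2 1.08 ± 0.07 SE, adjusted p = 1.31e-07, edgeR). Its paralogue BTG1 was more abundant and moved less, from 261, 283 and 274 CPM to 326, 344 and 352 CPM, a 1.25-fold rise (log2 0.32 ± 0.06 SE, adjusted p = 4.13e-04).

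GADD45A binds CDK1 and PCNA and slows entry into mitosis after DNA damage. It measured 40.1, 40.1 and 40.9 CPM in shLuc, where the libraries were almost equal, and 66.6, 70.5 and 72.6 CPM in shWDR5. The rise was 1.73-fold (log2 0.79 ± 0.06 SE, adjusted p = 5.37e-07, edgeR). SFN, also called stratifin, holds CDK1 and its activators in the cytoplasm and is an epithelial product. It was the most abundant member per base of transcript, with a mean RPKM (CPM per kilobase of exon) of 391.7 in shLuc and 615 in shWDR5. Its CPM were 562, 510 and 474 in shLuc and 889, 759 and 780 in shWDR5, without overlap (log2 0.65 ± 0.08 SE, adjusted p = 2.59e-05).

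The polo-like kinases PLK2 and PLK3 act in the stress response and, unlike PLK1, do not drive mitosis. PLK2 was at 77.6, 74.3 and 98.8 CPM in shLuc, with replicate 3 above the other controls, and at 128, 132 and 127 CPM in shWDR5 (log2 0.63 ± 0.10 SE, adjusted p = 3.52e-04, edgeR). PLK3 was at 43.7, 41.8 and 37.7 CPM in shLuc and at 69.3, 62.8 and 62.2 CPM in shWDR5 (log2 0.66 ± 0.07 SE, adjusted p = 1.15e-05). Both kinases rose without overlap of the groups.

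**Figure D2:**
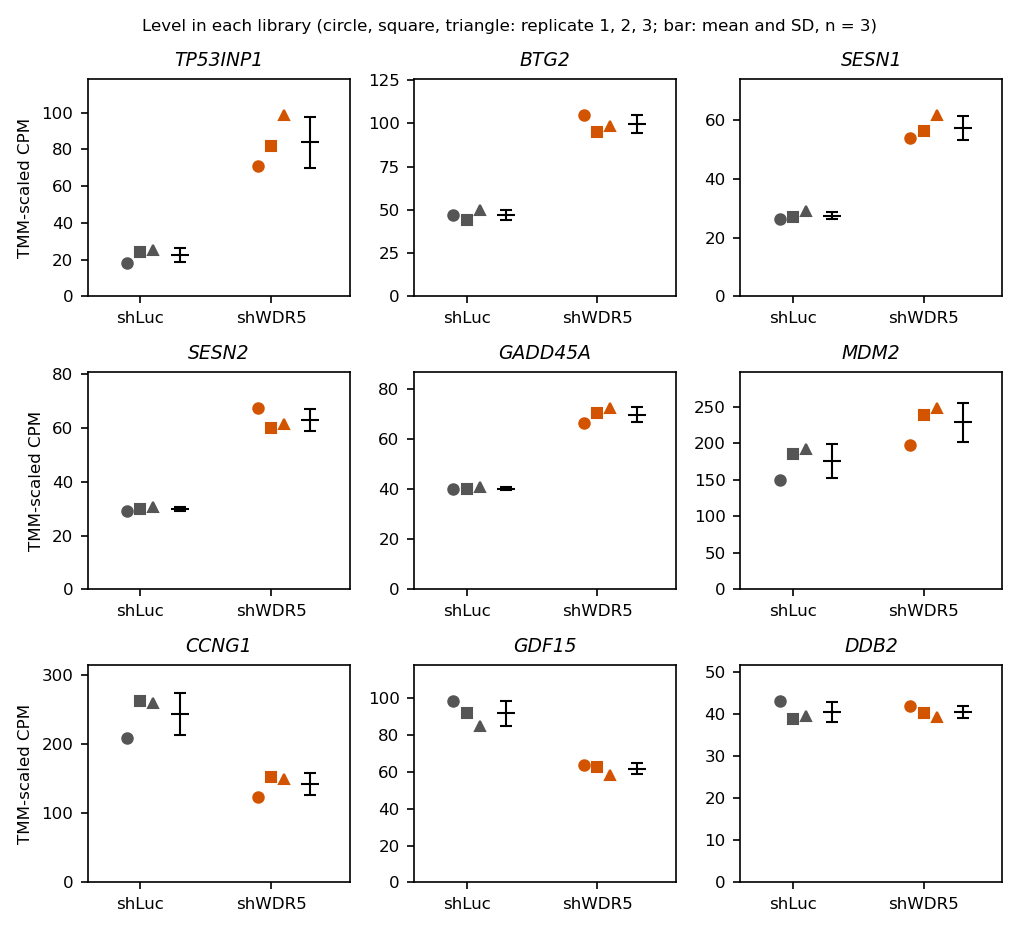
TMM-scaled CPM (vertical axes, each from 0) of 9 p53 target genes in each shLuc (grey) and shWDR5 (orange) library, with replicates 1, 2 and 3 as circle, square and triangle, and the mean with SD (n = 3) beside them. TP53INP1, BTG2, SESN1, SESN2, GADD45A and MDM2 were higher in each shWDR5 library than in any shLuc library, CCNG1 and GDF15 were lower, and the DDB2 groups overlapped.

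The metabolic members were 5, of which 4 rose (80.0%, against 26.6% of all genes tested) and none fell. Their median log2 fold change was 0.68. The sestrins SESN1 and SESN2 restrain the growth kinase mTORC1 when amino acids or energy run short. SESN1 stood at 26.5, 27.2 and 28.9 CPM in shLuc and at 53.8, 56.2 and 61.8 CPM in shWDR5, a 2.08-fold rise (log2 1.06 ± 0.07 SE, adjusted p = 2.50e-07, edgeR). SESN2 stood at 29.0, 29.9 and 30.7 CPM in shLuc and at 67.5, 59.8 and 61.4 CPM in shWDR5, a 2.11-fold rise (log2 1.07 ± 0.07 SE, adjusted p = 1.42e-07). The paralogues were thus at like levels in the controls, at 7.58 RPKM for SESN1 and 8.47 RPKM for SESN2, and at 15.8 and 17.8 RPKM after silencing. Of these, SESN1 holds one of the matches to the p53 element shown above, and the SESN2 window holds none under the same rule.

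TP53I3, a quinone oxidoreductase linked to reactive oxygen, was at 29.3, 27.7 and 28.2 CPM in shLuc and at 48.7, 42.5 and 45.1 CPM in shWDR5 (log2 0.68 ± 0.07 SE, adjusted p = 6.23e-06, edgeR). Of its exon bases, 5.19% overlap FAM228B, and reads there cannot be assigned without strand. FDXR, the mitochondrial reductase that feeds electrons to ferredoxin, rose less, from 34.0, 32.9 and 30.7 CPM to 45.6, 44.1 and 39.9 CPM (log2 0.41 ± 0.07 SE, adjusted p = 3.81e-04). SPATA18, which acts in the quality control of mitochondria, had a mean of 18.7 ± 2.09 CPM in shLuc and 19.9 ± 0.67 CPM in shWDR5 (SD, n = 3). Its log2 difference of 0.09 had a 95% interval from -0.09 to 0.28, so a rise of the sestrins' size lay outside that interval.

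Members tied to cell death held the largest change of the whole list. Of 8, 7 rose (87.5%, against 26.6% of all genes tested) and none fell. Other p53 targets tied to death were not members, several of them did not rise, and they are given with the further targets. Their median log2 fold change was 0.40. TP53INP1, a stress protein that promotes p53 phosphorylation and autophagy, measured 18.4, 24.1 and 25.3 CPM in shLuc and 71.1, 81.8 and 98.8 CPM in shWDR5. The lowest silenced library was well above the highest control, and the rise was 3.72-fold (log2 1.90 ± 0.16 SE, adjusted p = 3.68e-05, edgeR). The middle 90% of all genes tested had log2 fold changes between -0.93 and 1.03. Per base of transcript TP53INP1 was among the scarcest members in shLuc, at 3.997 RPKM, and reached 14.8 RPKM in shWDR5. In hg19, the build of the count table, the gene spans chr8:95938200-95961615 on the minus strand.

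PERP, a membrane protein of desmosomes with a part in apoptosis, was at 372, 468 and 463 CPM in shLuc and at 582, 626 and 746 CPM in shWDR5 (log2 0.59 ± 0.12 SE, adjusted p = 0.00259, edgeR). EI24, an endoplasmic reticulum protein needed for autophagy, was tighter, at 157, 155 and 166 CPM against 239, 240 and 228 CPM (log2 0.56 ± 0.05 SE, adjusted p = 3.72e-06). AEN, an exonuclease of apoptotic nuclei, was at 52.3, 53.3 and 52.6 CPM against 73.7, 68.9 and 68.2 CPM (log2 0.41 ± 0.06 SE, adjusted p = 6.99e-05). These genes rose in each of the 3 silenced libraries without overlap.

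TRIAP1 works the other way, as a small protein that holds back the apoptosome. It was at 29.9, 28.0 and 34.3 CPM in shLuc and at 39.98, 41.6 and 39.4 CPM in shWDR5 (log2 0.39 ± 0.08 SE, adjusted p = 9.94e-04, edgeR). The rise was therefore shared by members that promote death and by this inhibitor. PHLDA3, which competes with the survival kinase AKT for membrane lipids, was at 203, 179 and 180 CPM against 235, 214 and 212 CPM, a small rise (log2 0.23 ± 0.07 SE, adjusted p = 0.0101). Without shLuc replicate 2 the adjusted p of PHLDA3 was 0.0569, and over all alternatives it ran from 1.24e-04 to 0.0569.

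CYFIP2, a subunit of the actin-regulating WAVE complex, was at 76.2, 72.7 and 76.8 CPM in shLuc and at 90.9, 86.6 and 85.8 CPM in shWDR5 (log2 0.22 ± 0.06 SE, adjusted p = 0.00475, edgeR). ZMAT3, an RNA-binding zinc finger protein that controls splicing, was at 75.6, 105.6 and 100.8 CPM in shLuc and at 91.1, 116 and 120.7 CPM in shWDR5. Its groups overlapped, since replicate 1 was low in both. The ZMAT3 log2 difference of 0.22 was as large as that of CYFIP2, with a wider interval of -0.14 to 0.58, and did not pass the test (adjusted p = 0.265).

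The feedback members were split. MDM2, the ubiquitin ligase that marks p53 for destruction and the classic p53 target, was at 149, 185 and 192 CPM in shLuc and at 198, 239 and 248 CPM in shWDR5. The lowest silenced library exceeded the highest control only narrowly, and the rise was 1.301-fold (log2 0.38 ± 0.11 SE, adjusted p = 0.0193, edgeR). Without shWDR5 replicate 2 the adjusted p of MDM2 was 0.0643, and over all alternatives it ran from 1.64e-06 to 0.0643. PPM1D, a phosphatase that switches off p53 and the damage kinases, was at 14.8, 17.5 and 17.8 CPM in shLuc and at 20.4, 19.8 and 22.6 CPM in shWDR5 (log2 0.33 ± 0.09 SE, adjusted p = 0.00717).

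CCNG1, cyclin G1, which brings a phosphatase to MDM2 and thereby activates it, went down. It stood at 209, 262 and 259 CPM in shLuc and at 124, 152 and 150 CPM in shWDR5, so each silenced library was below each control. CCNG1 RNA fell by 0.78 ± 0.11 on the log2 scale (SE, adjusted p = 2.44e-04, edgeR), the largest fall among the 31 members. FBXO22, a substrate receptor of a ubiquitin ligase, was at 39.1, 45.1 and 45.6 CPM in shLuc and at 45.8, 50.5 and 50.8 CPM in shWDR5. Its groups did not overlap, but the log2 difference of 0.18 ± 0.07 (SE) did not pass (adjusted p = 0.0571, from 0.00289 to 0.193 over the alternatives). It passed without shWDR5 replicate 1 (adjusted p = 0.0292, edgeR). Of its exon bases, 10.4% overlap the antisense gene FBXO22-AS1.

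**Figure D3:**
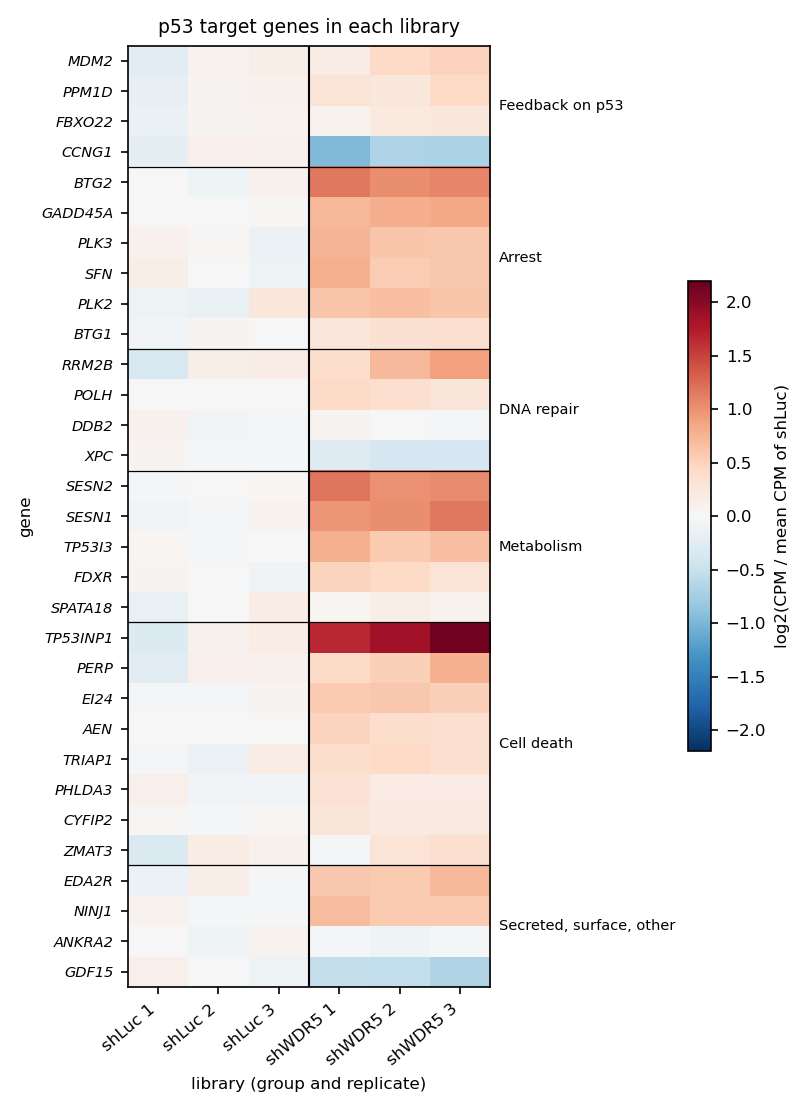
Level of the 31 p53 target genes (rows, by function) in each of the 6 libraries (columns), coloured by log2 of the CPM over the mean CPM of the 3 shLuc libraries, on a scale from blue (lower) to red (higher). The shWDR5 columns are red for most genes and darkest for TP53INP1, blue for CCNG1, GDF15 and XPC, and near white for DDB2 and ANKRA2.

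The repair members went in different directions. RRM2B, a ribonucleotide reductase subunit that supplies DNA precursors outside S phase, was at 41.7, 58.1 and 59.6 CPM in shLuc and at 69.6, 87.5 and 99.1 CPM in shWDR5. The spread within both groups was wide, and the rise was 1.61-fold (log2 0.69 ± 0.18 SE, adjusted p = 0.0147, edgeR). Without the filter on low counts the adjusted p of RRM2B was 0.0598, and over all alternatives it ran from 3.98e-08 to 0.0598. POLH, the polymerase that copies past ultraviolet lesions, was at 51.5, 51.6 and 52.4 CPM in shLuc and at 69.3, 66.9 and 62.2 CPM in shWDR5 (log2 0.35 ± 0.06 SE, adjusted p = 3.45e-04).

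XPC and DDB2 both recognise lesions for nucleotide excision repair, and neither rose. XPC was at 44.2, 41.2 and 41.3 CPM in shLuc and at 34.9, 32.6 and 32.9 CPM in shWDR5, and fell by 0.34 ± 0.06 on the log2 scale (SE, adjusted p = 6.66e-04, edgeR). DDB2 was at 43.2, 38.8 and 39.7 CPM in shLuc and at 42.1, 40.2 and 39.5 CPM in shWDR5, so the groups overlapped fully. The 95% interval of its log2 difference ran from -0.14 to 0.14. DDB2 is also the member whose promoter stretch had the fewest mismatches to the p53 element. Among the 6 members with a stretch shown, MDM2, AEN, SESN1 and FDXR rose, GDF15 fell and DDB2 did not pass the test. Higher calls took in 74.2% of all 31 members and 26.6% of all genes tested, and lower calls 9.68% and 29.9%. A link between a stretch and a gene's change was not tested.

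The remaining members are secreted, lie at the cell surface or have other roles. GDF15, a stress hormone of the TGFβ superfamily, was at 98.6, 91.9 and 84.7 CPM in shLuc and at 64.0, 62.9 and 58.3 CPM in shWDR5. The groups were well apart, and GDF15 RNA fell by 0.57 ± 0.07 on the log2 scale (SE, adjusted p = 2.33e-05, edgeR). NINJ1, which ruptures the plasma membrane of dying cells, moved the opposite way, from 90.2, 83.2 and 84.5 CPM to 138.8, 127.7 and 127.5 CPM (log2 0.61 ± 0.06 SE, adjusted p = 4.77e-06).

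EDA2R, the receptor of ectodysplasin A2, was scarce, at 11.2, 13.5 and 11.8 CPM in shLuc and at 18.2, 18.2 and 20.1 CPM in shWDR5 (log2 0.63 ± 0.09 SE, adjusted p = 6.25e-05, edgeR). ANKRA2, an ankyrin repeat adaptor, had a mean of 11.6 ± 0.69 CPM in shLuc and 11.2 ± 0.31 CPM in shWDR5 (SD, n = 3). Its log2 difference of -0.05 had a 95% interval from -0.22 to 0.12 and did not pass.

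Replicate 1 was the lowest library of both groups for 10 of the 31 members, or 32.3%, against 23.4% of all genes tested. These were MDM2, CCNG1, FBXO22, BTG1, RRM2B, SESN1, SPATA18, TP53INP1, ZMAT3 and PERP. With replicate 1 of both groups left out, 4313 of all genes were called higher and 4669 lower, against 4292 and 4811 with all libraries. Of the members, 25 were then called higher and 3 lower. The gained calls were FBXO22 (log2 0.18, adjusted p = 0.0231) and ZMAT3 (log2 0.22, adjusted p = 0.0058, edgeR, against 5.17e-04 to 0.523 over its alternatives). This setting was chosen after the values were seen.

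Among the genes around p53, higher and lower calls were equal in number. Of 19 p53 regulators listed, 18 could be tested, 7 were called higher, 7 lower and 4 (ATM, KAT5, SIRT1 and COP1) did not pass, with a median log2 fold change of 0.04. Each direction thus held 38.9% of those tested, against 26.6% higher and 29.9% lower among all genes tested. MDM4, the MDM2 partner that masks the activation domain of p53, was at 82.2, 93.8 and 86.6 CPM in shLuc and at 61.9, 66.1 and 67.1 CPM in shWDR5. It fell by 0.43 ± 0.06 on the log2 scale (SE, adjusted p = 1.46e-04, edgeR).

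CDKN2A, whose product ARF binds MDM2 and whose locus is known to be deleted in MCF10A, had no count in any of the 6 libraries. A count of 0 allows up to 0.0785 CPM in the shallowest library, for counting error alone. The checkpoint kinases that phosphorylate p53 were lower, CHEK1 at a log2 fold change of -0.84 ± 0.08 and CHEK2 at -0.73 ± 0.07 (SE, adjusted p = 5.72e-06 and 5.16e-06, edgeR). HIPK2, a kinase of the p53 amino terminus, rose (log2 0.74 ± 0.06 SE, adjusted p = 9.87e-07), and so did EP300, an acetyltransferase of p53 and histones (log2 0.43 ± 0.06 SE, adjusted p = 5.43e-05). The family member TP73 rose from a mean of 1.01 ± 0.04 CPM to 2.21 ± 0.16 CPM (SD, n = 3), a 2.18-fold change at a low level (adjusted p = 3.24e-05). RPL5, a ribosomal protein that can sequester MDM2, fell by 0.47 ± 0.06 on the log2 scale (SE, adjusted p = 4.26e-05).

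**Figure D4:**
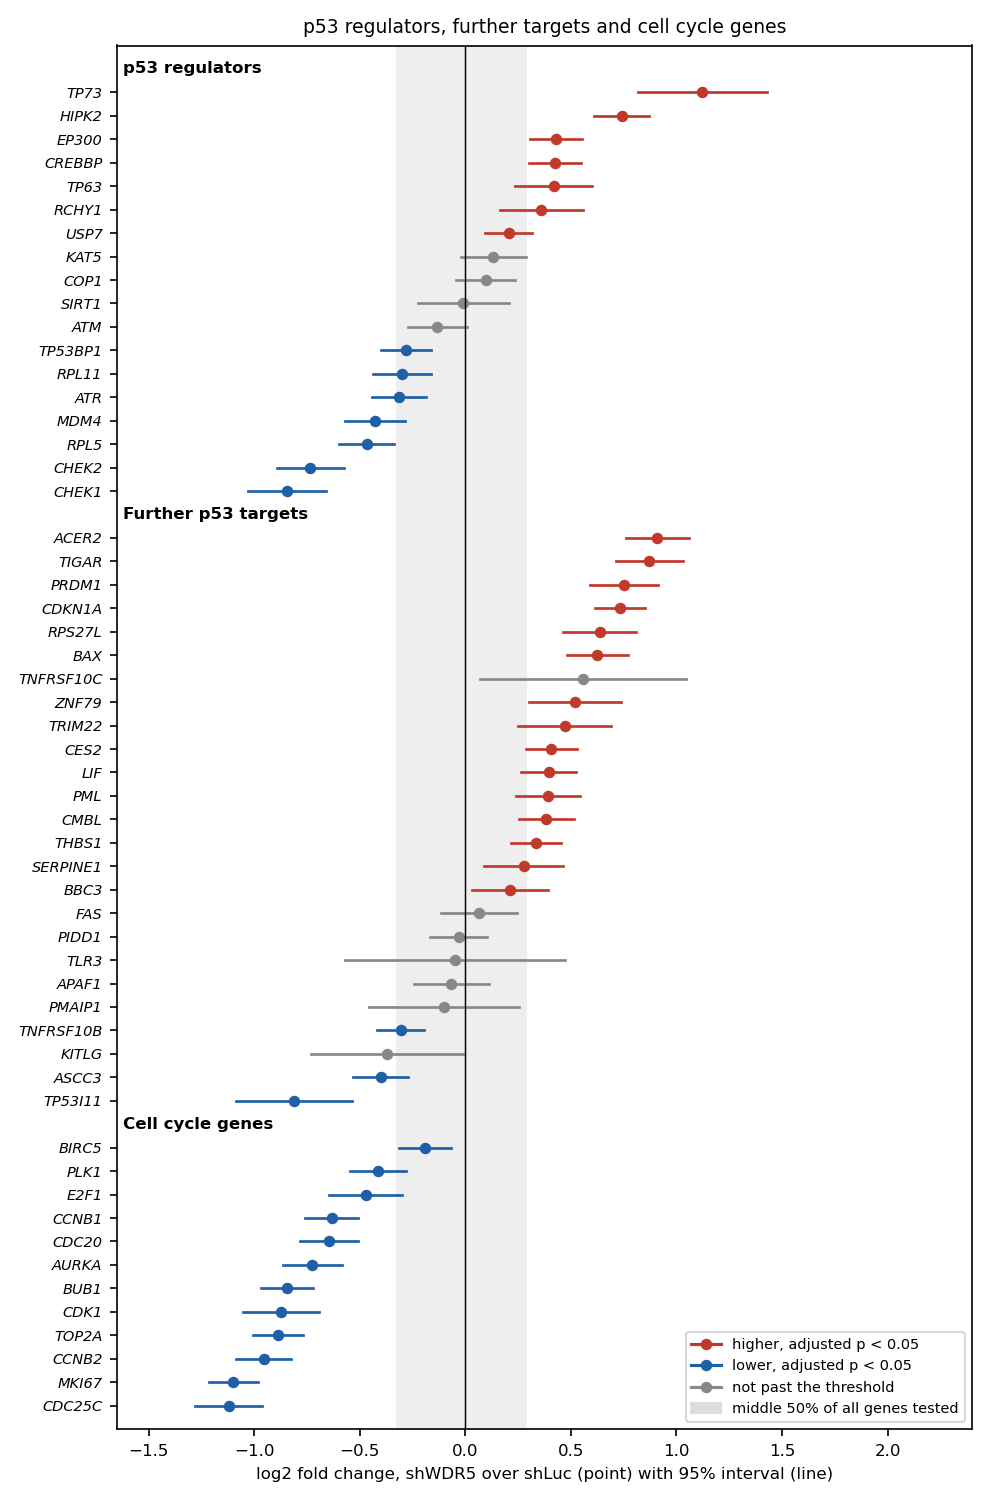
Log2 fold change (shWDR5 over shLuc, horizontal axis) with 95% interval for the 18 tested p53 regulators, 25 further p53 targets and 12 cell cycle genes (vertical axis), coloured as called higher (red), lower (blue) or not past the threshold (grey). The regulators fall on both sides of 0, 15 of the further targets are red and 3 blue, and all 12 cell cycle genes are blue.

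A list of 25 further p53 targets, likewise drawn up with earlier results of these data known, held more higher than lower calls. Of these, 15 were called higher (60.0%, against 26.6% of all genes tested) and 3 lower (12.0%, against 29.9%). The other 7 (PMAIP1, FAS, TNFRSF10C, PIDD1, APAF1, KITLG and TLR3) did not pass, and the median log2 fold change of the list was 0.38. CDKN1A, the CDK inhibitor p21 and the main arrest effector of p53, was at 447, 448 and 445 CPM in shLuc and at 788, 720 and 720 CPM in shWDR5. The controls were almost equal and the rise was 1.66-fold (log2 0.73 ± 0.05 SE, adjusted p = 5.70e-07, edgeR). TIGAR, a phosphatase that turns glycolysis towards the pentose phosphate pathway, rose 1.83-fold, and the ceramidase ACER2 rose 1.88-fold (adjusted p = 1.29e-06 and 5.63e-07). PRDM1 and RPS27L rose 1.68-fold and 1.55-fold (adjusted p = 5.26e-06 and 3.52e-05). TP53I11 fell by 0.81 ± 0.13 on the log2 scale (SE, adjusted p = 1.76e-04). The other genes called lower, named after their values were seen, were ASCC3 (log2 -0.40) and the death receptor TNFRSF10B (log2 -0.31). Among genes that promote death, also named afterwards, BAX (log2 0.63 ± 0.07 SE, adjusted p = 8.81e-06, edgeR) and BBC3 were called higher. BBC3 passed only narrowly (log2 0.21 ± 0.08 SE, adjusted p = 0.0448), and PMAIP1, FAS, PIDD1 and APAF1 did not pass.

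Cell cycle genes, listed because p53 can repress them through p21, were lower throughout. All 12 listed were called lower, against 29.9% of all genes tested, with a median log2 fold change of -0.78 and a range from -1.12 to -0.19. Without shWDR5 replicate 3, 11 of the 12 were called lower. The proliferation marker MKI67 was at 522, 540 and 495 CPM in shLuc and at 244, 245 and 238 CPM in shWDR5, and fell by 1.10 ± 0.05 on the log2 scale (SE, adjusted p = 3.30e-08, edgeR). CDC25C, the phosphatase that starts mitosis, fell by 1.12 and its substrate CDK1 by 0.87 on the log2 scale. CCNB2 fell by 0.96, TOP2A by 0.89 and BUB1 by 0.84 on that scale, with adjusted p between 1.48e-07 and 4.44e-06 over these 5 genes. The summed level of all 12 cell cycle genes was 1744 to 1810 CPM in shLuc and 999.5 to 1028 CPM in shWDR5. Its part in the changes of the members was not tested, nor was any part of p53 or p21 in the fall of these genes.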

How the data were processed

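Poly(A) RNA libraries (TruSeq) were sequenced on an Illumina HiSeq (3 shLuc, 3 shWDR5). The authors deposited whole-number counts per gene, and the submitters' processing notes name TopHat2 2.1.0, featureCounts, edgeR 3.2.2 and hg19. Settings for strand and for reads that map to several places are not given in the sources used here, so paralogues, pseudogenes and overlapping genes may share reads. A second deposited table holds the authors' own fold changes and p-values and was not used. Gene lengths in the deposited table gave RPKM.

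Counts were filtered with filterByExpr (16117 of 26334 genes kept), scaled by TMM and tested with edgeR 4.0.16 (quasi-likelihood, robust, R 4.3.3), with Benjamini-Hochberg adjustment over all genes tested. Standard errors and intervals were derived from the F statistic and its degrees of freedom. The code was tested on simulated data. Alternatives used DESeq2 1.42.0, the edgeR exact test, other scalings and filters, a size criterion, a replicate block and left-out libraries. Libraries of a group differed by more than counting noise (chi-square per degree of freedom of 7.15 to 18.2). Each was counted as a sample, but this spread cannot tell separate cultures from repeat libraries of the same culture. Of the further genes, COP1 is listed under its older symbol RFWD2.

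All 31 members are named. Of each further list, up to 6 called genes with the largest changes are named, besides MDM4, CDKN2A and CDKN1A. Any others of these lists were named after their values were seen. Of the listed regulators and of the leukocyte markers, 1 gene each is not reported here and was left out of the counts. The further lists, like the members, were chosen with earlier results of these data known. The mismatch limit for p53 elements was set after the windows were seen.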

Additional observations from a re-analysis of the deposited data

How the results depend on the processing

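WDR5 stayed lower under every alternative run (log2 -1.21 to -1.09). The count of members called higher ran from 22 to 25 and that of members called lower stayed at 3, except under the demand of a log2 change of at least 0.6. That demand left 12 members higher and 1 lower, 2 regulators higher and 2 lower, 6 further targets higher and 1 lower, and 1749 genes higher and 1935 lower in all, because it drops small changes by construction. DDB2, at a difference of about 0, changed sign with RLE scaling (0.0169), with a mean RPKM above 0.5 (0.0155), with DESeq2 (0.01675), with the replicate block (0.0015) and without replicate 1 of either group (0.0404), and ran from -0.0418 to 0.0629 when each library was left out in turn. No DDB2 value passed the test, and the cause was not tested. With the other alternatives, 6 or 7 regulators were called higher and 7 or 8 lower, and 14 to 16 further targets higher and 3 or 4 lower. ZMAT3 passed with the replicate block and without replicate 1 of either group. FBXO22 passed with these settings, with RLE scaling, with DESeq2, with a mean RPKM above 0.5 and without shWDR5 replicate 1.

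With the replicate number as a block, 4909 genes were called higher and 5521 lower, and 25 members higher and 3 lower. The numbers were not taken as pairs, since deviations of same-numbered libraries correlated at 0.372, 0.0358 and 0.116 and not every library correlated best with its own number. Depth did not limit the members, whose counts were 422 or more. Without replicate 1 of either group the SE fell from 0.18 to 0.07 for RRM2B, from 0.15 to 0.05 for ZMAT3 and from 0.11 to 0.06 for MDM2 (log2 scale).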
